A study of Mus musculus with 4 samples.

Results

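Hepatocyte growth factor, fibroblast growth factor and platelet-derived growth factor signals in dystrophic muscle were followed through 10 genes, chosen by name: the ligands Hgf, Fgf1, Fgf2, Fgf6, Pdgfa and Pdgfb and the receptors Met, Fgfr1, Fgfr4 and Pdgfra. They are 10 of the 18193 genes that had a probe set of their own on the array, and 25 probe sets measured them. Expression was measured in total RNA of the tibialis anterior, which lies at the front of the shin, on 4 Affymetrix Mouse Genome arrays. Every mouse carried the mdx mutation, which removes dystrophin and models Duchenne muscular dystrophy, on a strain labelled C57BL/6J. The groups were mdx at 1 month, mdx at 3 months, mdx/MMP-2-/- at 1 month and mdx/MMP-2-/- at 3 months, where MMP-2-/- denotes loss of the secreted gelatinase matrix metalloproteinase 2. Each group was 1 array, no muscle with dystrophin is among them, and the sources used here do not say how many animals gave the RNA.

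All 3 families signal through receptor tyrosine kinases. HGF is stored in the matrix of muscle and, once released and cleaved, binds MET on satellite cells, the stem cells of muscle, and brings them out of quiescence. FGFs bind their receptors together with heparan sulfate and favour the proliferation of myoblasts over fusion, and PDGFs act mainly on mesenchymal cells: PDGFRα marks the fibro-adipogenic progenitors from which fibrous tissue and fat arise, and PDGF-B from endothelium recruits pericytes.

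Values are MAS5 signals after quantile scaling, and a signal under 17.4, the median of all probe sets, was counted as at the floor. The deposited signals had trimmed means of 90.4 to 122.4 before scaling. Mmp2 had scaled signals of 985 and 805 in mdx and of 24.7 and 40.9 in mdx/MMP-2-/- at 1 and 3 months (19.7-fold lower or more at each age). All 10 muscle fibre markers, such as Ckm and Acta1, were above the floor on every array, with a summed signal of 128100 to 131400. They lie near the top of the signal range, where quantile scaling gives all arrays the same values, so the steady sum is no check of fibre content. Their median log2 genotype difference at 3 months was -0.03 after quantile scaling and -0.3 under median scaling. RNA quality was read from Actb control probe sets: their signal at the 3' end exceeded that at the 5' end 1.19-fold (mdx) and 1.05-fold (mdx/MMP-2-/-) at 1 month, and 2.36-fold and 2.09-fold at 3 months. This ratio moved with age in both genotypes, and its part in the age differences below was not tested. That of Gapdh was 0.85 to 0.94.

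Of the 10 genes, 8 were above the floor and 2, Hgf and Fgf2, were at the floor on every array. On the probe sets that represent the genes, 0 of the 8 differed by 2-fold between genotypes at either age, which is near the background of 1.15% of all measured genes at 1 month and 1.6% at 3 months. The one difference of that size was with age: Fgfr4, an FGF receptor of developing and regenerating muscle, was 2.24-fold lower at 3 months than at 1 month in mdx/MMP-2-/-. In mdx it was 1.62-fold lower. Pdgfb was lower at 3 months in both genotypes by 1.34-fold to 1.65-fold, and Fgf6 by 1.17-fold to 1.32-fold. On the probe sets that represent them, Pdgfa, Fgf1, Fgfr1 and Pdgfra each varied by no more than 1.24-fold over the 4 arrays. With 1 array per group a difference between a pair of arrays has no test of its own, so the words "higher" and "lower" apply to these arrays alone. The only test is an additive model over all 4 arrays, given further on, which called 0 of the 8 genes after adjustment. It called 0% of all measured genes as well, so even the deleted Mmp2 was not called, and this count says little about the 8 genes.

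**Figure D1:**
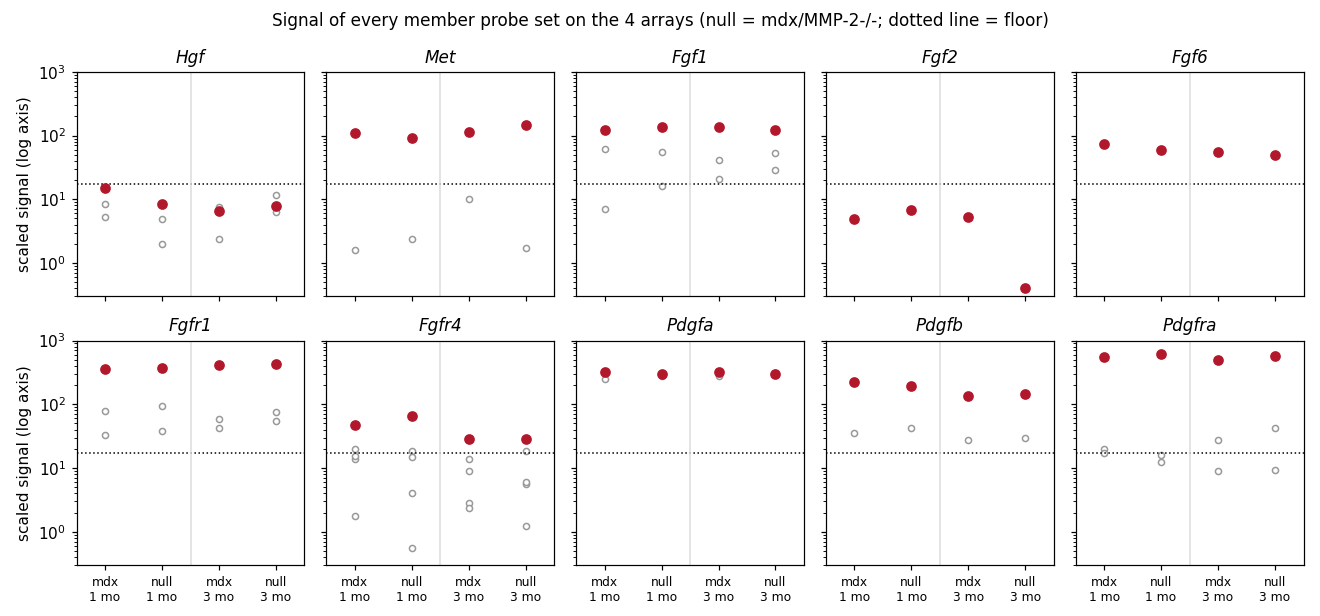
Scaled signal of all 25 probe sets of the 10 genes on the 4 arrays, on a log axis. Filled red points are the probe set that represents each gene, open points the others, and the dotted line is the floor at 17.4. The red points of Hgf and Fgf2 lie under the floor on every array, and those of Fgfr4 and Pdgfb are lower at 3 months than at 1 month.

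Among the ligands, HGF was not measurable on this array. Its best probe set, 1425379_at, read 14.8 in mdx and 8.34 in mdx/MMP-2-/- at 1 month, and 6.59 and 7.73 at 3 months. The other 2 probe sets read between 1.98 and 11.8. All 12 readings were under the floor, so no fold is given, and they do not show that the transcript was absent. Fgf2, basic FGF, which is held in the basement membrane and released on injury, read between 0.405 and 6.79 on its single probe set and was likewise under the floor on every array.

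Fgf6, an FGF that is largely restricted to skeletal muscle, read 73.3 in mdx and 58.7 in mdx/MMP-2-/- at 1 month, and 55.4 and 50.04 at 3 months (probe set 1427582_at). The signal was highest in young mdx and lowest in older mdx/MMP-2-/-. It was 1.25-fold lower in mdx/MMP-2-/- than in mdx at 1 month and 1.11-fold lower at 3 months, where unscaled signals turned the sign. With age it was 1.32-fold lower in mdx and 1.17-fold lower in mdx/MMP-2-/-, and both age differences kept their sign under all 8 alternative settings. Fgf6 has 1 probe set, so the alternatives of probe set could not change these values, nor could a floor that lies under its signals.

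Fgf1, acidic FGF, which lacks a signal peptide and binds all FGF receptors, read 122.4 in mdx and 138 in mdx/MMP-2-/- at 1 month, and 136 and 122.5 at 3 months (1423136_at). These 4 signals lay within 1.13-fold of each other. A second probe set above the floor on every array read 60.5, 55.0, 41.4 and 53.2 in the same order, and was lower at 3 months in mdx by 1.46-fold where the first was 1.11-fold higher. The third probe set exceeded the floor at 3 months only, at 21.0 in mdx and 28.6 in mdx/MMP-2-/-. The probe sets of Fgf1 thus gave no shared direction with age in mdx. In mdx/MMP-2-/- the first was 1.12-fold lower with age, a sign that turned under median scaling, with unscaled signals and with the mean of all probe sets.

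Pdgfa, a ligand of PDGFRα, read 317 in mdx and 303 in mdx/MMP-2-/- at 1 month, and 322 and 299.8 at 3 months (1449187_at). Its other probe set read 245, 274, 278 and 306 in the same order. By genotype the first probe set was lower in mdx/MMP-2-/- at both ages, by 1.04-fold and 1.07-fold, and the second higher at both, by 1.12-fold and 1.1-fold. Neither probe set moved by more than 1.13-fold with age. The genotype differences of the first turned sign with unscaled signals and with the mean of both probe sets, and its age difference in mdx/MMP-2-/- also under median scaling. On the probe sets that represent the measured ligands, Pdgfa had the narrowest range over the arrays, 0.10 on the log2 scale. Its other probe set varied more, from 245 to 306.

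Pdgfb, the PDGF chain made by endothelium, had the second widest range of the 8 genes. It read 224 in mdx and 195 in mdx/MMP-2-/- at 1 month, and 136 and 146 at 3 months (1450414_at). Both 1-month arrays stood above both 3-month arrays. The age difference came to 1.65-fold in mdx and to 1.34-fold in mdx/MMP-2-/-. The other probe set, with signals of 35.8, 42.5, 27.1 and 29.3, was lower with age by 1.32-fold in mdx and 1.45-fold in mdx/MMP-2-/-. Both probe sets and all 8 alternative settings gave a lower signal at 3 months in each genotype. By genotype the probe sets lay on opposite sides at 1 month (1.15-fold lower and 1.19-fold higher in mdx/MMP-2-/-) and both were higher at 3 months, by 1.07-fold and 1.08-fold.

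Among the receptors, Fgfr4 had the widest range. Its representing probe set, 1418596_at, read 46.6 in mdx and 65.0 in mdx/MMP-2-/- at 1 month, and 28.8 and 28.9 at 3 months. Both arrays of the younger mice stood above both arrays of the older mice, which differed from each other by only 1.0-fold. At 1 month the signal was 1.39-fold higher in mdx/MMP-2-/- than in mdx (log2 difference 0.48, and 0.08 to 0.63 under the alternatives). The age difference on the log2 scale came to -0.69 in mdx and to -1.17 in mdx/MMP-2-/-, so the genotype difference was smaller at 3 months by 0.47 on that scale; with 1 array per group this was not tested. The other 4 probe sets of Fgfr4 were at the floor on at least 3 arrays each, between 0.552 and 19.6, and bear little on the gene's level. Averaging all 5 probe sets reduced the age difference in mdx/MMP-2-/- to -0.24, and the other 7 alternatives kept it past 2-fold.

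The promoters of Fgfr4 and Fgf6, both of which were lower at 3 months in each genotype, are shown because both genes are known for their expression in myogenic cells. They are RefSeq sequences of GRCm38.p6, from 250 bases before to 50 bases after the annotated start, at chr13:55152568-55152867 (plus strand) and chr6:127015292-127015591 (plus strand). Capitals mark matches to the E-box CANNTG, a general motif whose binding factors include MyoD, and to the M-CAT motif CATTCC, bound by TEAD factors, on both strands. The capitals do not mark sites particular to MyoD.
Fgfr4: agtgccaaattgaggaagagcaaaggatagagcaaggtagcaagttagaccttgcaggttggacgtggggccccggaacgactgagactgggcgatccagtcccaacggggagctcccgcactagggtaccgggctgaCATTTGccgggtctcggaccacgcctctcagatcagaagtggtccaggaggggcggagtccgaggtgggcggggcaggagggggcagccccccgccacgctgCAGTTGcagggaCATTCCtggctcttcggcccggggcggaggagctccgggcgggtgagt
Fgf6: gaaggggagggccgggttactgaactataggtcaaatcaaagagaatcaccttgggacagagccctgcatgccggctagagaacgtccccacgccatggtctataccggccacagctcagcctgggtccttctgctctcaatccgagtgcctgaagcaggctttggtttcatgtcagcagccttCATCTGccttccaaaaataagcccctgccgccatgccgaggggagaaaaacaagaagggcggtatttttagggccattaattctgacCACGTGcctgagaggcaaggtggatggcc
The Fgfr4 window held 2 E-boxes and 1 M-CAT match, and the Fgf6 window 2 E-boxes and 0 M-CAT matches. Of 32851 promoter windows of the same length, 72.3% held an E-box and 14.7% an M-CAT match. A match is only a string of letters in this window, and the arrays did not measure binding of any factor. Of the 10 genes, 7 had a promoter in the table used.

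Met, the receptor of HGF, read 111 in mdx and 90.9 in mdx/MMP-2-/- at 1 month, and 113 and 145 at 3 months (1434447_at). Both mdx arrays stood between the mdx/MMP-2-/- arrays, which held the lowest and the highest signal. Met was 1.22-fold lower in mdx/MMP-2-/- at 1 month and 1.29-fold higher at 3 months. It was 1.6-fold higher at 3 months than at 1 month in mdx/MMP-2-/- and 1.01-fold higher in mdx. All but the last kept their sign under the 8 alternatives. The other Met probe set was under the floor on every array, between 1.59 and 10.2.

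Fgfr1, the FGF receptor of satellite cells, fibroblasts and many other cell types, had 3 probe sets above the floor on every array. The strongest, 1424050_s_at, read 358 in mdx and 372 in mdx/MMP-2-/- at 1 month, and 409 and 436 at 3 months. It was 1.04-fold and 1.07-fold higher in mdx/MMP-2-/- at 1 and 3 months, and the other 2 probe sets were higher in mdx/MMP-2-/- as well, by 1.14-fold to 1.3-fold. Under median scaling the 1-month difference of the strongest probe set turned negative, at -0.08 on the log2 scale. With age the probe sets disagreed: 2 were higher at 3 months in both genotypes, by 1.14-fold to 1.45-fold, and 1425911_a_at was lower in both, by 1.38-fold in mdx and 1.23-fold in mdx/MMP-2-/-. The values used here do not say which transcripts each probe set detects.

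Pdgfra, the receptor that marks fibro-adipogenic progenitors, read 560.3 in mdx and 619 in mdx/MMP-2-/- at 1 month, and 501 and 580.0 at 3 months (1421917_at). The mdx/MMP-2-/- signal was the higher at both ages, by 1.11-fold and 1.16-fold, although the mean of all probe sets put the 1-month difference at -0.01 on the log2 scale. With age it was 1.12-fold lower in mdx and 1.07-fold lower in mdx/MMP-2-/-, but neither direction held under every setting. On the log2 scale the age difference in mdx/MMP-2-/- turned to 0.21 under median scaling, 0.27 with unscaled signals and 0.4 with the mean of all probe sets, and that in mdx to 0.1 with the mean. A second probe set, 1438946_at, went the other way with age: it read 19.7 in mdx and 16.1, under the floor, in mdx/MMP-2-/- at 1 month, and 27.2 and 42.7 at 3 months, at least 2.45-fold higher in mdx/MMP-2-/-. The third exceeded the floor on no array. In bulk muscle, fewer cells of a type and less RNA per cell cannot be told apart for any of these genes.

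**Figure D2:**
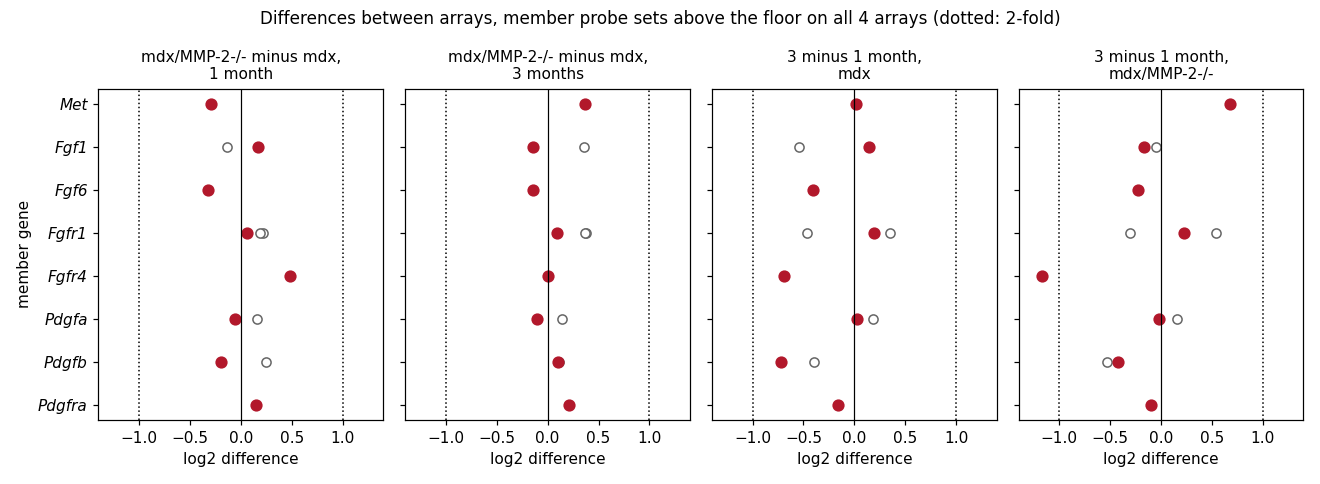
Log2 difference between arrays for the 13 probe sets above the floor on all 4 arrays, with 1 panel for each comparison. Filled red points are the probe set that represents the gene, open points the others, and dotted lines mark 2-fold. Only Fgfr4 lies past a dotted line, at -1.17 in mdx/MMP-2-/- with age, and the probe sets of Fgf1 and Fgfr1 lie on both sides of 0 in mdx with age.

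The genotype comparison asks what loss of MMP-2 alters in dystrophic muscle. At 1 month 4 of the 8 genes were higher in mdx/MMP-2-/- and 4 lower, with log2 differences of -0.32 (Fgf6) to 0.48 (Fgfr4) and a median of 0.0. At 3 months 5 were higher and 3 lower, from -0.15 to 0.36, with a median of 0.05. At or past 2-fold were 0 of 8 genes at each age, where 1.15% of the 12801 measured genes were at 1 month and 1.6% at 3 months. At 1.5-fold it was again 0 of 8, against 7.08% and 9.44%. A count of 0 of 8 is near that background. The median of all genes was 0.0 at both ages.

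The age comparison asks how the signals differ between younger and older dystrophic muscle. In mdx 4 of the 8 genes were higher and 4 lower at 3 months, with a median log2 difference of -0.07 and a lowest value of -0.72 for Pdgfb. At or past 2-fold were 0 of 8, against 2.52% of all genes. In mdx/MMP-2-/- 2 were higher and 6 lower, with a median of -0.13, which was 0.13 under median scaling, 0.19 with unscaled signals and 0.11 with the mean of all probe sets. Fgfr4 was the 1 gene at or past 2-fold, where 2.69% of all genes were and 1.22% were at least 2-fold lower. At 1.5-fold the count was 2 in each genotype: Fgfr4 and Pdgfb, both lower, in mdx, and Fgfr4, lower, and Met, higher, in mdx/MMP-2-/-, against 13.2% and 14.1% of all genes. In mdx 7.27% of all genes were that much lower, and in mdx/MMP-2-/- 6.7% were lower and 7.41% higher. With 8 genes, counts this small cannot be called near to or apart from the background.

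An additive model of genotype and age over the 4 arrays, fitted in limma across the 12801 genes, has 1 residual degree of freedom per gene and takes the genotype difference to be the same at both ages. It called 0 of the 8 genes for genotype or age at an adjusted p of 0.05, and it called 0% of all genes for either term. At an unadjusted p of 0.05 it called 0 of the 8 for genotype, against 4.37% of all genes, and 2 for age, against 13.7% (7.05% lower at 3 months). These were Fgfr4, with an age difference of -0.93 ± 0.19 (SE, log2) (adjusted p = 0.288), and Pdgfb, with -0.57 ± 0.17 (adjusted p = 0.307). Both were lower at 3 months in each genotype. With a variance prior that follows the signal, limma called 1.02% of all genes for age and 0.00781% for genotype, with 0 of the 8 for either, and the adjusted p was 0.15 for Fgfr4 and 0.18 for Pdgfb. For the other 6 genes the adjusted p was 0.446 or more for age, and for all 8 it was 0.982 or more for genotype.

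The other genes of these pathways were followed through 7 lists of 104 genes, of which 95 had a probe set of their own and 77 were above the floor. The limma fit called 0 of the 77 at an adjusted p of 0.05. At an unadjusted p of 0.05 it called 17 for age, 13 of them lower at 3 months, and 3 for genotype, where it called 13.7%, 7.05% and 4.37% of all measured genes. The genotype count of 3 of 77 is near that background, and the age counts of 17 and 13 of 77 stand above it. The higher share with age was not tested, and the lists were chosen with earlier results of these data known. Their median log2 difference was 0.0 and 0.05 by genotype at 1 and 3 months, and -0.1 and 0.0 by age in mdx and mdx/MMP-2-/-.

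Of the genes that activate HGF or act beside MET, 6 of 10 were above the floor. Plxnb1, a semaphorin receptor that associates with MET, read 25.0 in mdx and 43.4 in mdx/MMP-2-/- at 1 month, and 6.84, under the floor, and 37.0 at 3 months. It was 1.74-fold higher in mdx/MMP-2-/- at 1 month and at least 2.12-fold higher at 3 months, and kept that sign under each scaling. Gab1, the docking protein of MET, was 1.25-fold and 1.29-fold higher. Hpn, a protease that cleaves pro-HGF, was 2.07-fold lower at 3 months than at 1 month in mdx/MMP-2-/-, from 36.9 to 17.8, close to the floor. With unscaled signals its log2 difference was -0.96, short of 2-fold. The inhibitor of HGF activation Spint2 was 1.1-fold and 1.34-fold higher in mdx/MMP-2-/- at 1 and 3 months. The activator Hgfac and the protease St14 were at the floor on every array.

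Of the 19 other genes of the FGF family, 9 were above the floor on some array and 10 were at it on all, among them Fgf10 and Fgf21. Fgf18, a ligand known from cartilage and bone, read 55.3 in mdx and 45.4 in mdx/MMP-2-/- at 1 month and 26.5 and 27.2 at 3 months. It was 2.09-fold lower with age in mdx and 1.67-fold lower in mdx/MMP-2-/-. Beside it, the 8 tendon and cartilage markers had a median log2 age difference of -0.78 and -0.4, with a summed signal of 3257 in mdx and 2865 in mdx/MMP-2-/- at 1 month and of 2702 and 2627 at 3 months; their part was not tested. Fgf7, a fibroblast product that acts on epithelium, was 1.33-fold and 1.19-fold higher with age.

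Of the 7 other FGF receptors and binding proteins, 5 were above the floor, and the co-receptors Kl and Klb, which serve the endocrine FGFs, were at it. Fgfr3 read 82.9 in mdx and 54.2 in mdx/MMP-2-/- at 1 month, and 84.3 and 57.4 at 3 months. Both mdx/MMP-2-/- arrays stood below both mdx arrays, by 1.53-fold and 1.47-fold (limma genotype adjusted p = 0.982). Fgfr2 was under the floor at 3 months in both genotypes, with signals of 31.4 and 25.0 at 1 month, so that with age it was lower by 1.8-fold or more in mdx and by 1.43-fold or more in mdx/MMP-2-/-. Fgfrl1, a receptor without a kinase domain, was 1.21-fold and 1.51-fold lower with age.

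The other PDGF genes were all above the floor. Pdgfc, a ligand of PDGFRα, read 93.8, 94.2, 86.0 and 142 in mdx and mdx/MMP-2-/- at 1 month and mdx and mdx/MMP-2-/- at 3 months. Pdgfd, a ligand of PDGFRβ, read 104, 102, 77.0 and 51.1 in the same order. At 3 months Pdgfc was 1.66-fold higher and Pdgfd 1.51-fold lower in mdx/MMP-2-/-, and at 1 month both lay within 1.02-fold of mdx. Pdgfrb, the receptor of pericytes, was 1.22-fold higher in mdx/MMP-2-/- at 3 months, and Pdgfrl was 1.76-fold and 1.64-fold lower with age in mdx and mdx/MMP-2-/-.

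Heparan sulfate proteoglycans and their enzymes hold FGFs and HGF at the cell surface. All 19 measured genes were above the floor on every array, and 13 of 19 were lower at 3 months in mdx and 10 of 19 in mdx/MMP-2-/-. Their medians were -0.28 and -0.05, the second turning to 0.17 under median scaling and 0.24 with unscaled signals. Agrn, agrin, read 183 in mdx and 153 in mdx/MMP-2-/- at 1 month and 58.8 and 67.7 at 3 months, 3.11-fold and 2.26-fold lower. With unscaled signals the log2 difference in mdx/MMP-2-/- was -0.94, short of 2-fold. Sdc3, a syndecan, was 1.94-fold and 1.34-fold lower with age in mdx and mdx/MMP-2-/-. The other syndecans of the list were not lower in both genotypes. In the same order, log2 age differences were -0.01 and 0.44 for Sdc4, -0.16 and 0.58 for Sdc1, and 0.39 and -0.12 for Sdc2.

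Among the 17 adaptors and kinases, Crkl, an adaptor, was 2.14-fold lower with age in mdx/MMP-2-/- (196 against 91.4) and 1.07-fold lower in mdx. Its log2 difference in mdx/MMP-2-/- was -0.88 under median scaling and -0.82 with unscaled signals, both short of 2-fold. Map2k1, the kinase that activates ERK, was 1.61-fold higher in mdx/MMP-2-/- at 1 month, and Akt1 was 1.64-fold and 1.65-fold lower with age. The list had a median within 0.07 of 0 in all 4 comparisons after quantile scaling. Of the 17 feedback inhibitors and targets, Etv5, a transcription factor induced by FGF signalling, was 2.54-fold lower with age in mdx (219 to 86.2) and 1.54-fold lower in mdx/MMP-2-/- (166 to 108). Fos and Myc, which respond to many stimuli, were 2.4-fold and 2.04-fold lower in mdx/MMP-2-/- at 1 month. The log2 difference of Myc was -0.85 with unscaled signals and -0.98 under cyclic loess scaling, both short of 2-fold. The Sprouty genes, feedback inhibitors of receptor tyrosine kinases, did not share a direction: Spry1 was 1.27-fold and 1.45-fold lower with age in mdx and mdx/MMP-2-/-, and Spry4 1.56-fold and 1.47-fold higher.

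**Figure D3:**
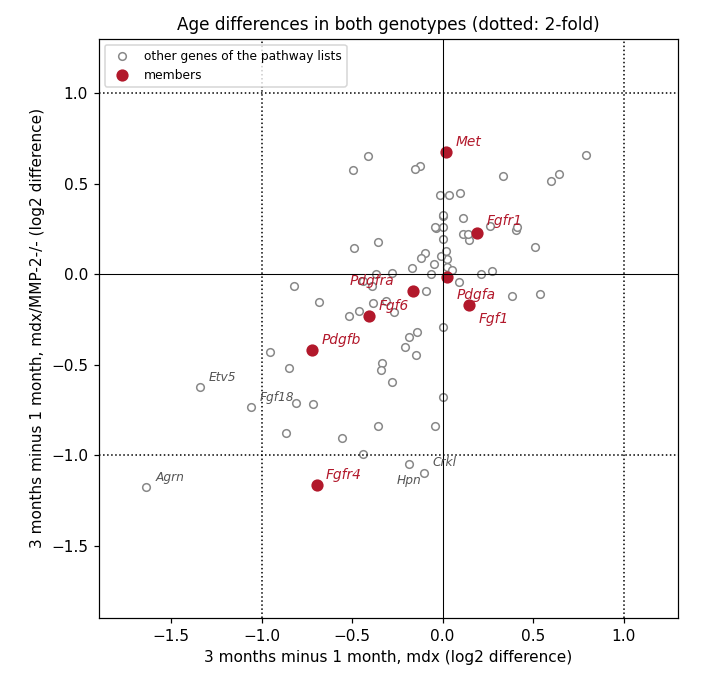
Log2 difference between 3 months and 1 month in mdx (horizontal) and in mdx/MMP-2-/- (vertical) for the 8 measured genes (red) and the 77 measured genes of the pathway lists (open), with dotted lines at 2-fold. The axes share no array. Fgfr4 and Pdgfb lie to the lower left with Agrn, Etv5 and Fgf18, and Met lies at 0.02 on the horizontal and 0.67 on the vertical axis.

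Markers of the cell types in the muscle also differed between the arrays. The 11 measured satellite cell and myoblast markers had a summed signal of 2351 in mdx and 2194 in mdx/MMP-2-/- at 1 month, and of 1460 and 1814 at 3 months. With age 11 of 11 were lower in mdx and 8 of 11 in mdx/MMP-2-/-, with medians of -0.65 and -0.44, beside the lower Fgfr4 and Fgf6. Chrdl2 of that list was at the floor on every array, and Pax7, the defining marker, was above it. At 1 month the markers went both ways between genotypes, with 5 higher and 6 lower in mdx/MMP-2-/- and a median log2 difference of -0.08, which was 0.02 with unscaled signals.

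The 12 endothelial markers had summed signals of 3177 and 3371 at 1 month and of 2417 and 2202 at 3 months in mdx and mdx/MMP-2-/-. With age 10 of 12 were lower in mdx and 11 of 12 in mdx/MMP-2-/-, with medians of -0.56 and -0.68, beside the lower Pdgfb. The 14 fibroblast and progenitor markers had summed signals of 54510 and 53860, then 47310 and 50530, and medians with age of -0.6 and -0.29, beside Pdgfra differences of -0.16 and -0.09, whose signs depended on the setting as given above. The age medians in mdx/MMP-2-/- depended on the scaling. Under median scaling and with unscaled signals they were -0.23 and -0.16 for satellite cell and myoblast markers. They were -0.39 and -0.33 for endothelial markers, and -0.08 and -0.02 for fibroblast and progenitor markers.

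The 12 macrophage and monocyte markers had summed signals of 7780 and 7465 at 1 month and of 5610 and 8870 at 3 months. All 12 were higher in mdx/MMP-2-/- than in mdx at 3 months, Cd163 by only 1.004-fold. The mdx/MMP-2-/- array at 3 months also held the highest signals of the probe sets that represent Met, Pdgfc and Fgfr1. Other pathway genes, among them Pdgfrb, Gab1, Sdc4 and Dusp6, were highest there as well, and Pdgfd was lowest there. That array had the highest trimmed mean before scaling, 122.4. The 5 measured neutrophil markers had summed signals of 173, 194, 87.7 and 663 in the same order, with Ltf and Cxcr2 at the floor. The 10 pericyte and smooth muscle markers ranged from 11410 to 12980, and the 6 measured Schwann cell markers from 1137 to 2261. The fibroblast, tendon and cartilage, and Schwann cell lists also had negative medians with age in both genotypes (-0.41 and -0.2 for Schwann cells in mdx and mdx/MMP-2-/-). A lower list beside a lower gene was thus not particular to a single cell type. The part of these cell types in the differences was not tested.

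**Figure D4:**
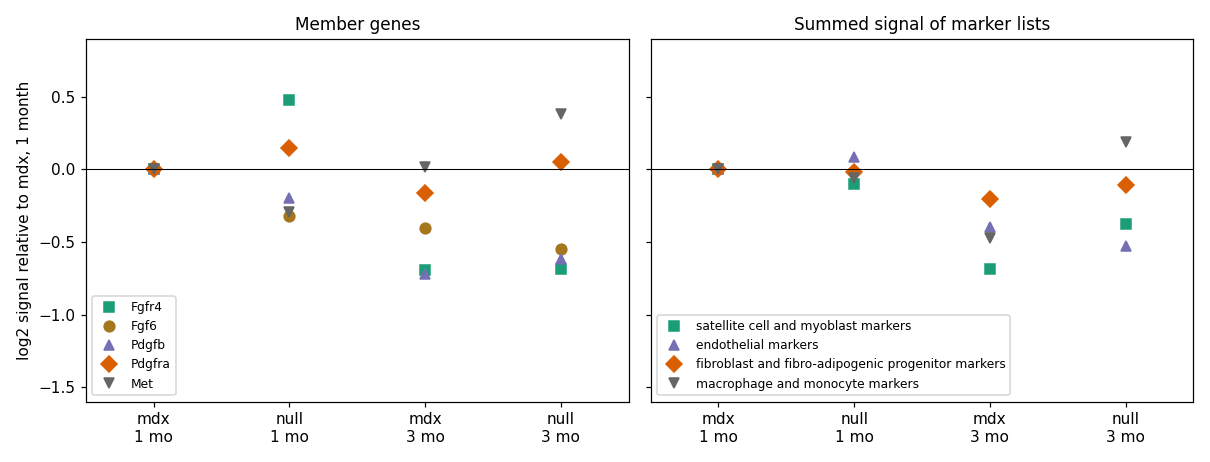
Log2 signal relative to the mdx array at 1 month for 5 genes (left) and for the summed signal of 4 lists of cell type markers (right) on the 4 arrays. Fgfr4, Fgf6, Pdgfb and Pdgfra, and the satellite cell, endothelial and fibroblast markers, are each lower at 3 months than at 1 month in both genotypes. Shared colours and markers set Fgfr4 beside the satellite cell, Pdgfb beside the endothelial, Pdgfra beside the fibroblast and Met beside the macrophage markers. Whether the signal of a gene came from the cell type set beside it was not tested.

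For the gene of each family with the widest range, the genes most alike in pattern over the 4 arrays were sought among 707 genes above the floor on every array with at least a 2-fold range. Closest to Fgfr4 were Fras1, an extracellular matrix protein, S1pr1, a sphingosine-1-phosphate receptor of endothelium, and Ppm1f, a phosphatase, with root mean square differences of 0.05, 0.07 and 0.07 on the log2 scale. S1pr1 read 177 and 241 at 1 month and 122 and 112 at 3 months in mdx and mdx/MMP-2-/-. Closest to Pdgfb were Zfp105, Anks3 and Lrp12, at 0.11 to 0.12, and closest to Met were Zswim9, Sash3, a signalling adaptor of lymphocytes, and Med6, at 0.13 to 0.14. Pdgfb and Met themselves ranged only 1.65-fold and 1.6-fold, so genes with a range as small as theirs were not searched. A likeness over 4 arrays is a description of these arrays only.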

How the data were processed

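Total RNA of 4 tibialis anterior samples was hybridised to 1 array each. The authors deposited a linear MAS5 intensity for each probe set; the submitters' processing notes name MAS5 and Expression Console. Their versions and settings are not given in the sources used here, and no coordinates come with the values. The genes and lists were chosen with earlier results of these data known.

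Of 45101 probe sets, 64 controls were left out, 34945 carried 1 gene symbol, 932 several and 9160 none. Gene identifiers of 34741 matched the mouse gene table, with 0 symbols changed. Signals were quantile normalized (limma 3.58.1, R 4.3.3), raised to a floor of 17.4 (the 50th percentile) and put on the log2 scale. Among probe sets with 1 symbol, that of highest mean log2 signal represents its gene, and 12801 genes exceeded the floor on at least 1 array. A fold against a floored signal is a lower bound. Named genes are the 10 genes, pathway genes at or past 2-fold in a comparison or otherwise the 2 largest of a list, and the 3 closest profiles per family; further genes named were chosen after their values were seen. lmFit and eBayes were run on the additive model with Benjamini-Hochberg adjustment and tested on simulated data. Python 3.11.15, numpy 2.4.6 and pandas 2.3.3 made the tables. With 1 array per group, the number of arrays limits the precision. Alternatives were other scalings, floors, probe set rules and thresholds.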

Additional observations from a re-analysis of the deposited data

Results flagged for a closer look

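With 1 array per group, a pair of differences that run opposite ways was not tested. The genotype difference (mdx/MMP-2-/- minus mdx) ran opposite ways at 1 and 3 months for 3 genes. For Met the later minus the earlier value was 0.66 on the log2 scale (-0.29 and 0.36), and for Pdgfb 0.30 (-0.20 and 0.10). For Fgf1 it was -0.32 (0.17 and -0.15).

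The age difference ran opposite ways in mdx and mdx/MMP-2-/- for Fgf1 (0.15 and -0.17, a difference of -0.32) and for Pdgfa (0.02 and -0.02, a difference of -0.042). For Met, both differences kept their sign under the 8 alternative settings run, while at least 1 of the pair turned sign under some setting for Fgf1, Pdgfa and Pdgfb.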

How the results depend on the processing

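Of the 32 differences between arrays (8 genes, 4 comparisons), 16 kept their sign under all 8 alternatives of scaling, floor and probe set, and 18 under the 7 that keep a scaling. Not every alternative could turn every sign. A floor under a gene's signals changes nothing, nor does a probe set rule for Fgf6 with its single probe set. For Met, averaging with a probe set at the floor can only shrink a difference. A sign kept under all settings therefore rests mainly on the scalings for such genes. The one call at 2-fold, Fgfr4 with age in mdx/MMP-2-/-, was kept by 7 of 8; with the mean of all probe sets its log2 difference was -0.24 and the count 0, where 4 of its 5 probe sets were near the floor. At 1.5-fold the counts with age were 2 in mdx and 2 in mdx/MMP-2-/-. Without adjustment of p, limma called 2 genes for age.

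The median of the 8 genes moved by over 0.1 in these cases: to -0.13 under median scaling for genotype at 1 month (all genes -0.1), to 0.51 with unscaled signals for genotype at 3 months (all genes 0.41), and to -0.28 without _x_at and _s_at probe sets for age in mdx. For age in mdx/MMP-2-/- it moved to 0.13 under median scaling (all genes 0.19), 0.19 with unscaled signals (all genes 0.26) and 0.11 with the mean of probe sets. The cause was not tested. Signals near the floor limit Hgf, Fgf2 and most Fgfr4 probe sets. No paired analysis was possible because each group held 1 array and the labels number no replicates; the additive model itself compares genotypes within age and ages within genotype, with 1 residual degree of freedom.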
